A study of Mus musculus with 6 samples.

Results

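Rods and cones signal to bipolar and horizontal cells through ribbon synapses. A list of 32 genes assigned to such synapses was examined here in the retina of Unc119 wild-type and knockout mice. The members were chosen by name, with earlier results of these data known. They are genes of the ribbon and active zone, of its calcium channel, of vesicles and their release, and of adhesion across the cleft. All 32 symbols matched 1 of the 24346 gene symbols in the tables. Whole retina mRNA was measured in 3 wild-type libraries (Unc119+/+) and 3 knockout libraries (Unc119-/-), and no treatment is named in the labels. The sources used here give no age, strain, allele design or number of animals behind each library, so the p-values measure the spread between these libraries, which may be technical.

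The ribbon is a plate of the protein RIBEYE that tethers vesicles above the presynaptic membrane. In darkness photoreceptors are depolarised, L-type calcium channels under the ribbon stay open, and glutamate is released continuously. Scaffold proteins such as Bassoon hold ribbon and channel together, and matrix and adhesion proteins align them with the receptors of bipolar cells. UNC119 is best known as a carrier of lipid-modified proteins such as the rod transducin alpha subunit. It is concentrated in photoreceptors, also at their synaptic ends, and binds RIBEYE and the calcium sensor CaBP4, encoded by Ctbp2 and Cabp4.

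The gene Ctbp2 (chromosome 7, 132987563 to 133124354, minus strand, GENCODE on GRCm38, the assembly also called mm10) makes 2 proteins. The transcript Ctbp2-201 starts at 133123367 and encodes the nuclear co-repressor CtBP2. The transcript Ctbp2-214 starts at 133015248, inside the same gene, and its first coding exon of 1687 bases (133013518 to 133015204) holds the long N-terminal part that makes RIBEYE. The 2 transcripts share 8 of their 9 coding exons, with 1335 and 2964 coding bases in total. The files give 1 value per gene symbol, so RIBEYE and CtBP2 mRNA cannot be told apart in the values below.

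Promoter windows from RefSeq (GRCm38.p6, 250 bases before to 50 after a start) were held for 25 of the 32 genes, in 39 windows. They were searched on both strands for TAATCC (reverse complement GGATTA), the core of sites for the photoreceptor transcription factor CRX. It was present in 8 of the 39 windows (20.5%), against 2320 of 32851 windows of the same length over all genes (7.06%). The 8 windows belong to 6 genes, Ctbp2, Lrit1, Lrit2, Stx3, Sv2b and Syp. The same Lrit2 match was counted in overlapping windows, 37 and 56 bases before their starts. Sv2b also gave matches in separate windows, so windows are not separate genes or sites. The letters TGCTGAC (reverse complement GTCAGCA) are a part of the element bound by the rod factor NRL. They were present in 4 member windows (10.3%) of Cplx3, Lrit2 and Nrxn3, against 4.67% of all windows. The Lrit2 match was again counted in overlapping windows. The matches nearest before the RIBEYE start and before the starts of Lrit1, Lrit2 and Sv2b are printed here, the first because RIBEYE is the ribbon's own protein and the others because they lie before a start and within 91 bases of it. The Stx3 match lies 30 bases after its start and that of Syp 246 bases before, and neither is printed. Capitals mark the 6 matching bases, each sequence is written 5′ to 3′ on the strand of its gene, and a match describes letters, not a bound site.
Ctbp2 at the RIBEYE start (chr7:133015351-133015380, minus strand, 121 bases before the start): taaggtttcagaGGATTAataatttaggtc
Lrit1 (chr14:37054768-37054797, plus strand, 50 bases before the start): gggctccctcccTAATCCccagcctgtgtt
Lrit2 (chr14:37067980-37068009, plus strand, 37 bases before the nearer start): ctacatctttatGGATTAccaataatagga
Sv2b (chr7:75302683-75302712, minus strand, 91 bases before an inner start): tgtgatgttcttGGATTAttattgtactgc
The other window of Ctbp2 did not hold these letters. In GENCODE the Lrit2 gene begins at 37067929, before the printed match, so the RefSeq start used there lies inside that gene.

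FPKM, the unit of the tables, is the number of fragments per kilobase of transcript, scaled for library size, so levels can be compared between genes. The absolute depth is unknown. Relative depth, read from the steps between low values and set to 1 in wild-type replicate 2, came to 0.763 in wild-type replicate 1, 0.805 in wild-type replicate 3 and 0.931 to 0.964 in the knockout libraries. The 15 rod markers were all present, with a summed level of 31916 to 34763 FPKM in wild type, against 32497 to 34358 FPKM in knockout retina. Knockout replicate 3 stood apart by lens RNA: 19 lens genes made up 2.99% of its FPKM, against at most 0.219% in any other library. The 11 microglia markers summed to 34.6 to 40.9 FPKM in wild type, against 62.0 to 71.4 FPKM in knockout retina, and 11 amacrine markers to 615 to 659 FPKM and 591 to 616 FPKM. Xist and Y-chromosome genes marked 3 libraries as male (knockout replicate 1, wild-type replicates 1 and 2) and the others as female. Unc119 itself measured 1191, 1187 and 1206 FPKM in wild-type replicates 1 to 3 and 510, 460 and 449 FPKM in the knockout libraries. It fell to 39.6% of the wild-type mean (log2 change −1.34, standard error 0.06, limma adjusted p = 6.6e-05).

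None of the 32 ribbon synapse genes passed the test between the genotypes. The test was limma on log2(FPKM + 1) over the 14176 genes with a mean of at least 0.5 FPKM, two-sided, with Benjamini-Hochberg adjustment and a threshold of 0.05, and all 32 members passed that filter (the lowest, Erc1, had a mean of 5.0 FPKM). Of all genes tested 0.233% were called, 0.205% higher and 0.0282% lower in the knockout. The smallest adjusted p among the members was 0.265, for Rims2. At an unadjusted p under 0.05 there were 2 members, Rims2 and Cacnb2, both with lower values in the knockout, and none with higher values, against 3.81% and 5.19% of all genes tested in those directions. The 95% limma interval of the log2 change spanned 0 for the other 30, and for 16 of the 32 it lay within −0.20 to 0.20. The widest interval was that of Syn2, from −0.21 to 0.32.

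The values below 0 were the more frequent ones. For 25 members the log2 change was below 0 and for 7 above it, with a median of −0.06. Over all genes tested the median was −0.00, and 50.7% were below 0. Those genes include lower ones than the members. With a filter at a mean of 5 FPKM the medians were −0.06 for members and −0.01 for all genes tested. In 7 members every knockout library was below every wild-type library, and in 1 member, Elfn1, every knockout library was above. Over all genes tested the genotypes failed to overlap for 8.04% in the lower direction and 7.83% in the higher direction. In whole retina, fewer cells of a type and less RNA per cell cannot be told apart. The smallest p that exact permutation can give with 3 libraries per genotype is 0.1. Every gene without overlap has that value, so it adds nothing for these 8 members.

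**Figure D1:**
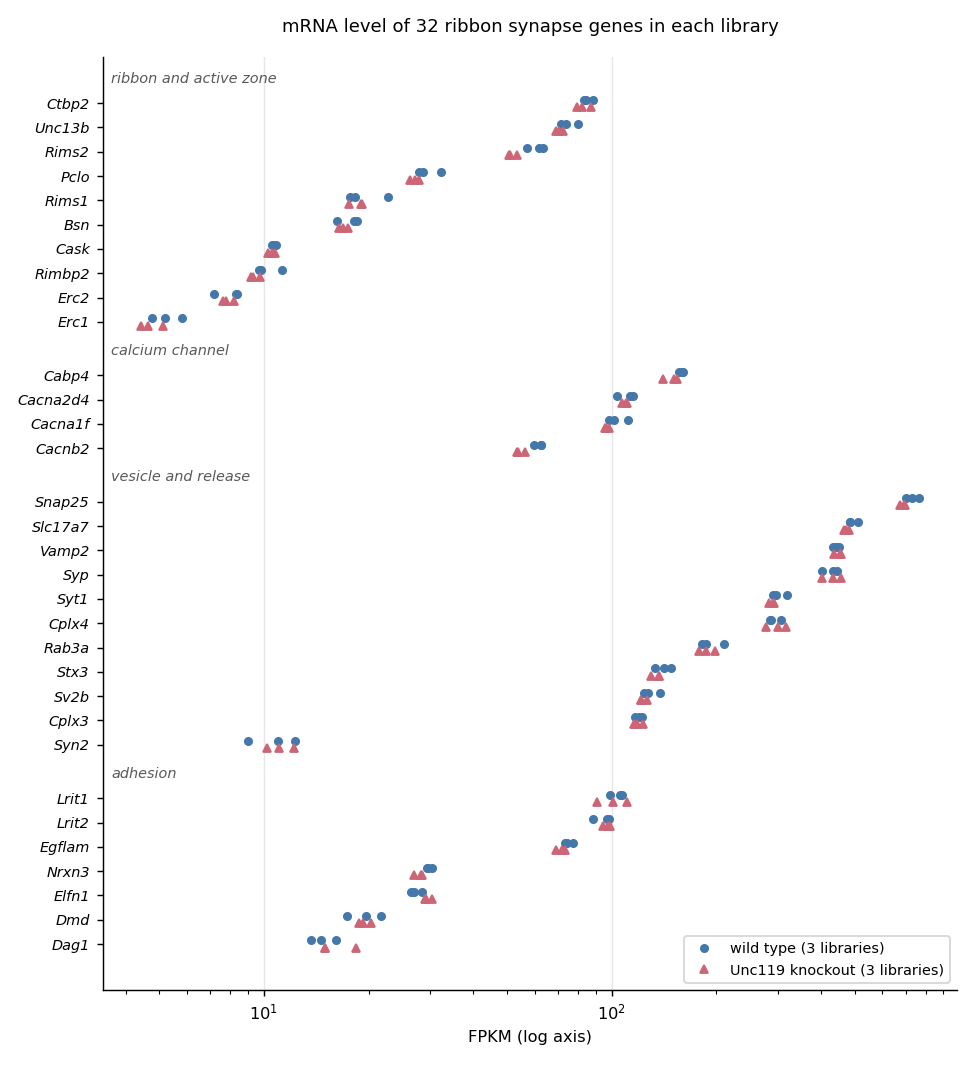
Level of each of the 32 genes in FPKM (log axis), by role, with 1 circle for each of 3 wild-type libraries and 1 triangle for each of 3 knockout libraries. Levels run from Erc1 near 5 FPKM to Snap25 near 700 FPKM, and for most genes circles and triangles lie on top of each other.

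**Figure D2:**
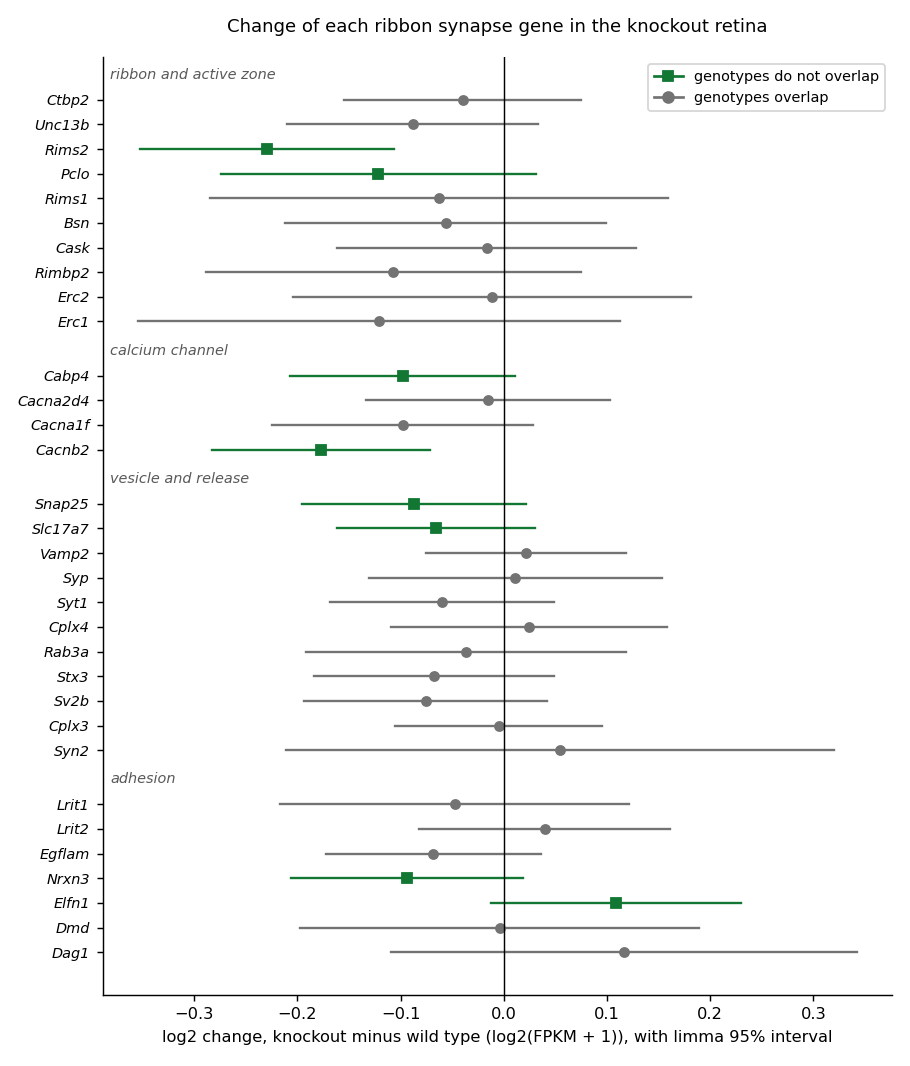
Log2 change of each gene on the log2(FPKM + 1) scale (knockout minus wild type) with its 95% limma interval. Squares mark the 8 genes whose genotypes do not overlap. Only the intervals of Rims2 and Cacnb2 exclude 0, and no gene passed after adjustment over all genes tested.

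Among the 10 genes of the ribbon and active zone, all 10 log2 changes were below 0, from −0.23 to −0.01 with a median of −0.08. The share below 0 over all genes tested was 50.7%. Under the 16 alternatives described below, Erc2 changed sign in 4 and Rims1 in 1. Ctbp2 measured 84.4, 83.1 and 88.5 FPKM in wild-type replicates 1 to 3 and 79.5, 82.3 and 87.1 FPKM in knockout replicates 1 to 3. The ranges overlapped, and the mean was 85.3 ± 2.77 FPKM against 83.0 ± 3.84 FPKM (SD, n = 3 each). This gave a log2 change of −0.04 and a 95% interval from −0.16 to 0.08 on the log2(FPKM + 1) scale (limma adjusted p = 0.830), for RIBEYE and CtBP2 mRNA together.

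Rims2 had the largest difference among the members. It encodes RIM2, an active zone scaffold that binds vesicle-bound Rab3 and supports calcium channel function at the photoreceptor synapse. Its values were 63.4, 57.2 and 61.9 FPKM in wild-type replicates 1 to 3 and 53.5, 50.7 and 51.0 FPKM in knockout replicates 1 to 3. Each knockout library was below the lowest wild-type library. The knockout mean was 85.0% of the wild-type mean, 51.7 ± 1.56 against 60.9 ± 3.21 FPKM (SD, n = 3 each). The log2 change was −0.23 (standard error 0.05, 95% interval −0.35 to −0.11, unadjusted p = 0.00267), and it did not pass after limma adjustment over all genes (adjusted p = 0.265). It was −0.22 when knockout replicate 3, where lens RNA was highest, was left out, −0.17 within males and −0.28 within females. For males the only knockout library was replicate 1, and for females the only wild-type library was replicate 3. Scaled to the rod markers the log2 change of Rims2 was −0.22. Rims2 lies on chromosome 15 (39198261 to 39684372, plus strand).

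Pclo encodes Piccolo, a giant scaffold whose short form Piccolino is the one found at ribbons. It measured 28.7, 27.9 and 32.3 FPKM in wild type, against 26.3, 27.1 and 27.8 FPKM in knockout retina, which did not overlap by a narrow margin (limma log2 change −0.12, adjusted p = 0.624). Bsn, which encodes Bassoon, the anchor of the ribbon to the membrane, overlapped at 17.6 ± 1.21 and 16.9 ± 0.518 FPKM (SD, n = 3 each). Rims1, the RIM1 gene, measured 19.5 ± 2.76 and 18.6 ± 0.833 FPKM, with wild-type replicate 1 the highest of the 6 libraries at 22.7 FPKM. Without that library its log2 change was 0.04, above 0. Unc13b, which encodes the vesicle priming factor Munc13-2, measured 75.2 ± 4.38 and 70.6 ± 1.62 FPKM. Rimbp2, whose product links RIM to calcium channels, measured 10.2 ± 0.864 and 9.41 ± 0.277 FPKM. The ELKS genes Erc1 and Erc2 were the 2 lowest members, at 5.25 ± 0.534 and 4.74 ± 0.357 FPKM for Erc1 and 7.96 ± 0.663 and 7.88 ± 0.283 FPKM for Erc2. Cask, a scaffold kinase of synaptic membranes, differed least between libraries, at 10.7 ± 0.149 and 10.5 ± 0.242 FPKM.

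The 4 genes of the photoreceptor calcium channel also had log2 changes below 0 in every case, with a median of −0.10. Over all genes tested 50.7% were below 0. The change of Cacna2d4 was −0.02, and it changed sign under 3 of the 16 alternatives described below. In 2 of the 4 genes, Cacnb2 and Cabp4, every knockout library was below every wild-type library, beside 8.04% of all genes tested. Cacna1f encodes the pore-forming Cav1.4 subunit, Cacnb2 the beta subunit that brings it to the membrane, and Cacna2d4 the extracellular alpha2delta subunit. Cabp4 encodes the sensor that binds Cav1.4 and shifts its opening to the voltages at which photoreceptors work, and it is a binding partner of UNC119.

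Cacnb2 measured 62.6, 59.8 and 62.8 FPKM in wild-type replicates 1 to 3 and 56.4, 53.8 and 53.3 FPKM in knockout replicates 1 to 3. All knockout libraries were below all wild-type libraries, and the knockout mean was 88.3% of the wild-type mean (54.5 ± 1.63 against 61.7 ± 1.68 FPKM, SD, n = 3 each). The log2 change was −0.18 (standard error 0.05, 95% interval −0.28 to −0.07, unadjusted p = 0.00489, limma adjusted p = 0.327). It was −0.16 without knockout replicate 3, −0.12 within males and −0.23 within females. The male value rests on knockout replicate 1 alone and the female value on wild-type replicate 3 alone for that genotype. Cacnb2 lies on chromosome 2 (14603088 to 14987908, plus strand).

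Cabp4, the most abundant of the 4, measured 156.7, 160.3 and 159.4 FPKM in wild-type replicates 1 to 3 and 150.8, 154.4 and 140.1 FPKM in knockout replicates 1 to 3. The wild-type libraries were close together, and the lowest value was that of knockout replicate 3. The log2 change was −0.10, with a 95% interval from −0.21 to 0.01 (limma adjusted p = 0.583), and −0.06 without knockout replicate 3. Cabp4 (chromosome 19, 4135423 to 4144033, minus strand) shares 131 of its 3518 exon bases with Gpr152 on the opposite strand, which measured 35.4 FPKM in wild type, against 31.8 FPKM in knockout retina on average. The libraries came from a stranded kit, but the sources used here do not state whether counting used strand. Cacna1f measured 103.8 ± 7.03 and 96.8 ± 1.5 FPKM, with wild-type replicate 3 the highest at 111.7 FPKM. Cacna2d4 measured 110.6 ± 6.35 and 109.3 ± 1.85 FPKM (SD, n = 3 each).

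Ratios within a library do not depend on how libraries were scaled. These pairs were chosen after the values were seen and are given with no test. For each unit of Cacna1f there was 0.596 ± 0.0294 of Cacnb2 in wild type and 0.563 ± 0.00806 in the knockout (SD, n = 3 each), with overlapping libraries. The ratio of Cabp4 to Cacna1f was 1.53 in either genotype. That of Cacna2d4 to Cacna1f was 1.03 to 1.11 in wild type and 1.12 to 1.15 in the knockout, which did not overlap. The ratio of Rims2 to Ctbp2 ran from 0.689 to 0.751 in wild type and from 0.585 to 0.673 in the knockout, also without overlap.

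**Figure D3:**
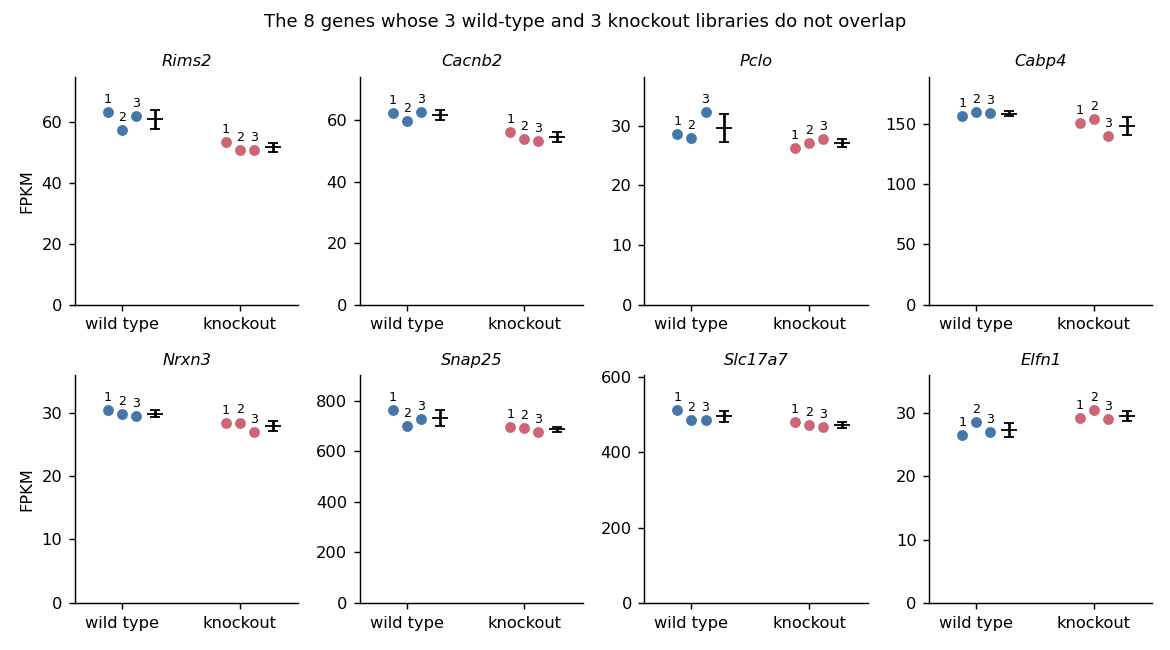
FPKM of the 8 genes whose genotypes do not overlap, with 1 point per library labelled by its replicate number, and the mean with its SD beside the points (n = 3 per genotype). The axes start at 0, on which the differences are small. The knockout mean of Rims2 is 85.0% of wild type, and Elfn1 is the only gene of the 8 above wild type.

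The 11 vesicle and release genes included the 7 most abundant members and had a median log2 change of −0.04 and values from −0.09 to 0.05. Snap25, a membrane SNARE of vesicle fusion in neurons, was the highest of all members at 763.3, 700.3 and 728.8 FPKM in wild-type replicates 1 to 3 and 696.4, 691.0 and 675.7 FPKM in knockout replicates 1 to 3. The highest knockout value was just under the lowest wild-type value, and the log2 change was −0.09 (95% interval −0.20 to 0.02, limma adjusted p = 0.622). Slc17a7 encodes VGLUT1, which loads glutamate into photoreceptor and bipolar vesicles. It measured 511.2, 486.3 and 486.0 FPKM in wild type, against 480.1, 471.0 and 465.8 FPKM in knockout retina, again without overlap (limma log2 change −0.07, adjusted p = 0.667).

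The other vesicle genes overlapped between genotypes. Vamp2, the vesicle SNARE, measured 441.9 ± 9.71 and 448.5 ± 11.9 FPKM, and Syp, the vesicle membrane protein synaptophysin, 426.6 ± 21.9 and 430.1 ± 27.7 FPKM (SD, n = 3 each). Stx3 encodes syntaxin 3, the syntaxin of ribbon terminals, at 141.1 ± 7.24 and 134.5 ± 3.95 FPKM. Complexins clamp and time SNARE-driven fusion, and the forms of retinal ribbon synapses are encoded by Cplx3 and Cplx4. Cplx4, a gene of photoreceptors, measured 293.0 ± 11.5 and 298.4 ± 19.5 FPKM, and Cplx3 119.6 ± 3.01 and 119.2 ± 3.74 FPKM. Their log2 changes were 0.02 (95% interval −0.11 to 0.16) and −0.01 (95% interval −0.11 to 0.09). Cplx4 was 2.45 ± 0.0619 times the level of Cplx3 in wild type and 2.50 ± 0.147 times in the knockout. Syt1, the calcium sensor of fast release, measured 302.0 ± 14.6 and 289.4 ± 5.06 FPKM. Rab3a, a small GTPase on vesicles, measured 192.8 ± 15.3 and 187.8 ± 10.5 FPKM, and the vesicle glycoprotein gene Sv2b 129.8 ± 7.29 and 123 ± 3.04 FPKM. Syn2 encodes a synapsin, a family found at conventional synapses of the inner retina and largely missing from ribbon terminals. It was the lowest of the 11 at 10.7 ± 1.63 and 11.1 ± 1.01 FPKM, 1 of the 7 members with a log2 change above 0.

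The 7 adhesion and matrix genes split, with 4 log2 changes below 0 and 3 above, and a median of −0.00. Elfn1, a leucine-rich repeat protein of the rod terminal that holds the bipolar cell receptor mGluR6 in place, measured 26.5, 28.5 and 27.0 FPKM in wild-type replicates 1 to 3 and 29.2, 30.5 and 29.0 FPKM in knockout replicates 1 to 3. No wild-type library reached the lowest knockout library, and the knockout mean was 108% of the wild-type mean (log2 change 0.11, 95% interval −0.01 to 0.23, limma adjusted p = 0.583). Its partner across the cleft, Grm6, measured 42.3 ± 2.63 and 38.6 ± 1.45 FPKM (limma adjusted p = 0.573). Nrxn3 encodes a neurexin, a presynaptic adhesion receptor. It measured 30.4, 29.7 and 29.4 FPKM in wild type, against 28.3, 28.4 and 27.0 FPKM in knockout retina, without overlap (limma log2 change −0.09, adjusted p = 0.610).

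Lrit1, a leucine-rich repeat protein of photoreceptor terminals and the most abundant of the 7, measured 98.8, 107.1 and 105.8 FPKM in wild type, against 101.0, 110.4 and 90.8 FPKM in knockout retina. Its knockout values spread on both sides of the wild-type values (log2 change −0.05, 95% interval −0.22 to 0.12). Lrit2, its relative and neighbour on chromosome 14, measured 94.4 ± 5.42 and 97.0 ± 2.39 FPKM (SD, n = 3 each). Egflam encodes pikachurin, the matrix ligand that joins dystroglycan at the photoreceptor terminal, and measured 75.1 ± 1.99 and 71.6 ± 2.25 FPKM. The dystroglycan gene Dag1 measured 14.8 ± 1.24 and 16.1 ± 1.98 FPKM, with knockout replicate 3 the highest at 18.4 FPKM. In a fit with a term for lens RNA, the log2 change of Dag1 was −0.04 in place of 0.12. Markers of Mueller glia also summed highest in knockout replicate 3, at 2143 FPKM against 1757 to 1873 FPKM in the other libraries. The part of glial RNA in the values of Dag1 and Dmd was not tested. The dystrophin gene Dmd measured 19.6 ± 2.17 and 19.5 ± 0.750 FPKM.

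The members' median was also set out library by library. On the log2(FPKM + 1) scale the 32 members had a median distance from their wild-type mean of 0.03, −0.04 and 0.00 in the wild-type libraries, numbered 1 to 3, and of −0.04, −0.04 and −0.08 in the knockout libraries. Wild-type replicate 2 was thus close to knockout replicates 1 and 2, and knockout replicate 3 was the lowest. The rod markers had a median of 0.06, −0.06 and 0.00 in wild-type replicates 1 to 3 and 0.02, −0.00 and −0.06 in knockout replicates 1 to 3. Summed over the 32 genes, the level was 4405 ± 124 FPKM in wild type, against 4274 ± 111 FPKM in knockout retina (SD, n = 3 each), with overlap. The members made up 1.11% to 1.16% of all FPKM in the other 5 libraries and 1.03% in knockout replicate 3. Without that library 21 members had log2 changes below 0 and the median was −0.04, and without wild-type replicate 1 the count was 19 and the median −0.04. Within males the median was −0.04 and within females −0.07, each with 1 library on 1 side.

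**Figure D4:**
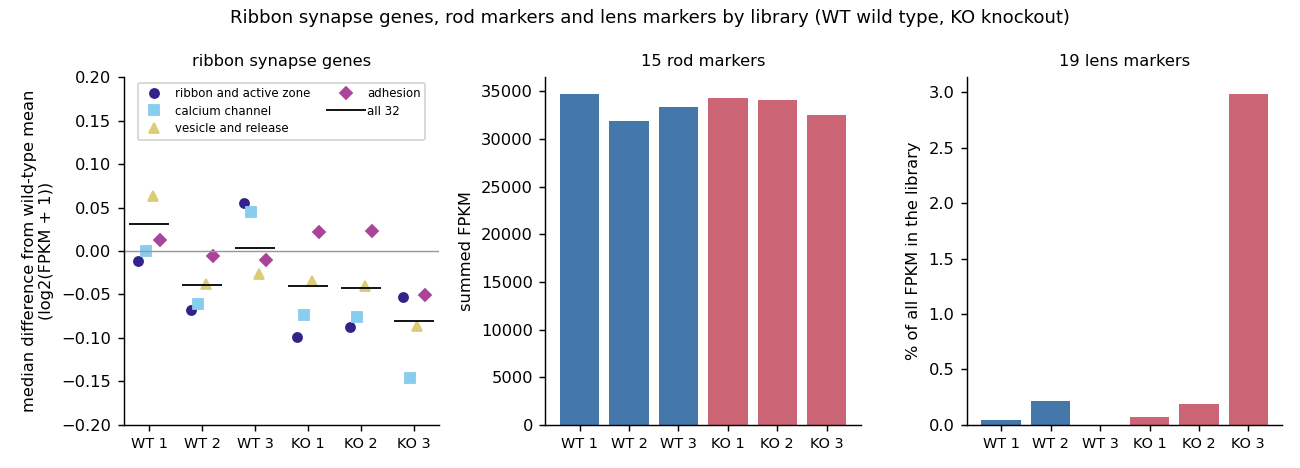
By library (WT wild type, KO knockout, 3 each): left, the median difference of ribbon synapse genes from the wild-type mean, by role and over all 32 (bars); middle, the summed FPKM of 15 rod markers; right, the share of all FPKM from 19 lens markers. Wild-type replicate 2 and knockout replicates 1 and 2 share a member median of −0.04, and the lens share is 2.99% in knockout replicate 3.

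Several members belong to gene families whose other forms serve conventional synapses, and the balance of forms was compared next. Cacna1f made up 90.0% ± 0.926 of the summed FPKM of the L-type pore genes Cacna1f and Cacna1d in wild type and 89.6% ± 0.644 in the knockout (SD, n = 3 each). Slc17a7 made up 96.0% ± 0.315 and 95.9% ± 0.103 of the vesicular glutamate transporter genes. Unc13b held 67.1% ± 0.337 and 66.3% ± 0.434 of the Munc13 genes. Cplx4 and Cplx3 held 55.8% ± 0.356 and 22.8% ± 0.442 of the complexin genes in wild type, and 56.7% ± 1.69 and 22.7% ± 0.645 in the knockout. Ctbp2 held 61.7% ± 2.37 and 61.4% ± 1.72 beside Ctbp1. Rims2 held 75.8% ± 2.1 beside Rims1 in wild type and 73.6% ± 0.775 in the knockout. The genotypes overlapped in all 18 shares computed, and the largest shift of a mean was that of Cacnb2 among the beta subunits, from 63.6% ± 1.42 to 60.9% ± 2.28. These families were chosen after the values were seen.

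**Figure D5:**
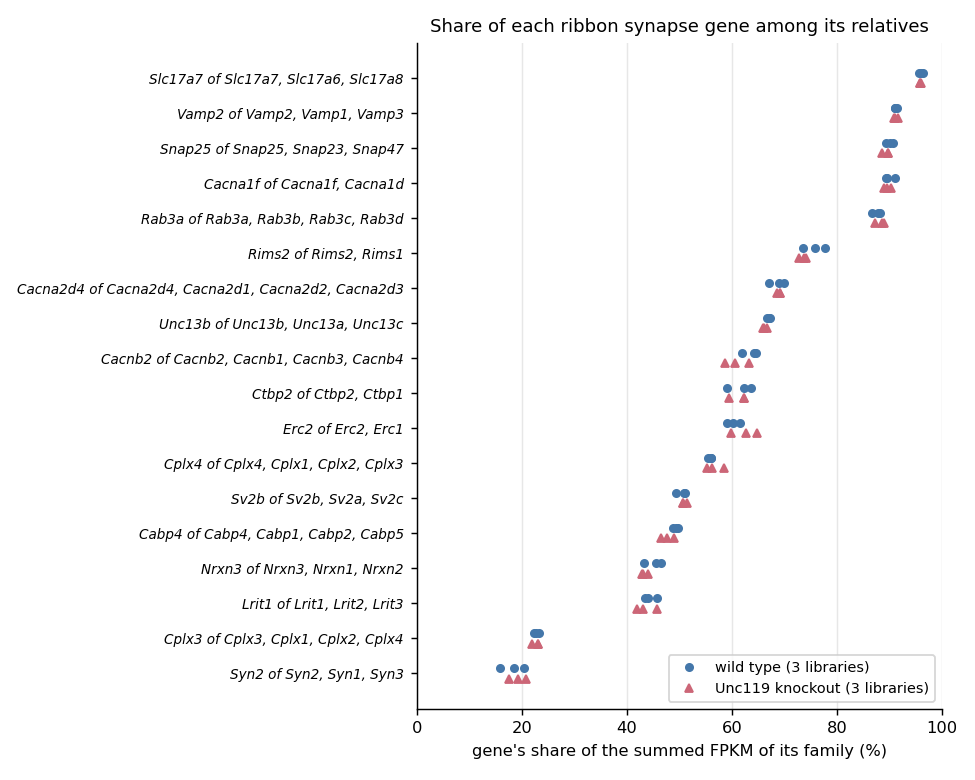
Share of each ribbon synapse gene in the summed FPKM of the relatives named on the axis, in percent, with 1 circle per wild-type and 1 triangle per knockout library (3 each). Circles and triangles overlap in all 18 rows, from Syn2 near 20% to Slc17a7 near 96%.

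Other genes of presynaptic terminals were examined in the same way. Of a list of 96 further presynaptic genes 95 were in the tables and tested, and none was called in either direction. Their median log2 change was −0.04, with 67 below 0 and 28 above. The genotypes did not overlap for 21 (22.1%), 16 lower and 5 higher, beside 8 of 32 (25%) among the members and 15.9% of all genes tested. The smallest unadjusted p belonged to Doc2b, a calcium sensor for asynchronous and spontaneous release, at 25.9 ± 1.58 FPKM in wild type, against 21.3 ± 1.08 FPKM in knockout retina (limma log2 change −0.27, adjusted p = 0.284). Sh3gl2, the endophilin A1 gene of vesicle retrieval, measured 100.2 ± 2.66 and 88.6 ± 3.64 FPKM (log2 change −0.18). Dnajc5, the vesicle chaperone cysteine string protein alpha, measured 109.6 ± 2.25 and 99.1 ± 2.71 FPKM (log2 change −0.14). Syt4, a synaptotagmin, measured 56.5 ± 0.196 and 51.0 ± 2.89 FPKM (log2 change −0.15). All of these had adjusted p of at least 0.284.

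On the other side of the cleft, 23 of 24 listed genes of the receiving cells and of dystroglycan glycosylation were tested and none was called. The median log2 change was −0.06, with 16 below 0 and 7 above. The genotypes did not overlap for 6 (26.1%), 4 lower and 2 higher, beside 15.9% of all genes tested. Rgs7bp, a membrane anchor of the RGS7 complex that ends mGluR6 signals, measured 12.4 ± 0.154 and 10.4 ± 0.730 FPKM (limma log2 change −0.23, adjusted p = 0.423). Rgs11, the partner of RGS7 in that role, measured 22.6 ± 2.84 and 26.6 ± 1.60 FPKM (limma log2 change 0.23, adjusted p = 0.526). Gria2, an AMPA receptor subunit, measured 47.3 ± 3.0 and 42.9 ± 1.29 FPKM (SD, n = 3 each). Beside these, the marker lists of all 6 classes of retinal neuron also had medians below 0. The median log2 change was −0.01 for the 15 rod markers and −0.09 for the 11 cone markers, 8 of which were below 0 and 1 of which, Gnb3, was called higher, while the summed cone level ran from 1071 to 1140 FPKM in wild-type libraries and from 1143 to 1190 FPKM in knockout libraries. It was −0.19 for 6 horizontal cell markers, 5 of them below 0, which summed to 56.3 to 60.5 FPKM and 51.5 to 60.4 FPKM. For the 12 bipolar markers it was −0.03, with 9 below 0 and sums of 754 to 787 FPKM and 748 to 788 FPKM. For the 10 ganglion cell markers it was −0.11, with 8 below 0 and sums of 464 to 535 FPKM and 476 to 481 FPKM. The 11 amacrine markers had a median of −0.08, with 7 below 0. Of these 11 markers 4 were lower and 1 was higher in every knockout library. Over all genes tested those shares were 8.04% and 7.83%. The cone, horizontal and ganglion cell lists each had 2 markers lower in every knockout library, and the cone list 1 higher. Cones share the ribbon synapse genes, and inner retinal neurons also express members such as Snap25, Syt1 and Nrxn3. The part of these cells' RNA, or of the microglia RNA given above, in the members' values was not tested.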

How the data were processed

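Per the labels' protocols, retinal RNA was taken up in TRIzol and made into stranded mRNA libraries. Per the submitters' processing notes, TopHat2 2.1.1 and Cuffdiff 2.2.1 were used with mm10; the sources used here do not state annotation or strand setting. For each library the authors deposited FPKM per gene symbol. Depth is therefore unknown. FPKM is normalised by length and library, and RNA from other tissue can lower the values of other genes. Summed over all genes, FPKM was 401874 in knockout replicate 3, against 384810 to 390256 in the other libraries. In that replicate the median distance of all genes tested from their wild-type mean was −0.004 on the log2(FPKM + 1) scale. Scaling the libraries by their median ratios left the members' median log2 change at −0.06. How far lens RNA lowered other genes was not tested.

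From these values, log2(FPKM + 1) was computed and genes with a mean of at least 0.5 FPKM were fitted with limma 3.58.1 in R 4.3.3 (prior variance following the mean level), knockout against wild type, without a replicate block. The script was tested on simulated data. Replicate numbers were not used as pairs, since the labels do not say that they pair libraries. Same-numbered libraries deviated together with correlations of 0.07, −0.09 and −0.12, and differently numbered ones with −0.08 to 0.17. These values do not settle whether the numbers pair libraries. No libraries were identical (correlations 0.983 to 0.993). Relative depth was the commonest ratio between libraries of values up to 0.3 FPKM, within 0.015 log2 units. From 27.8% to 30.6% of those values lay at that ratio, so relative depth is an indirect estimate. Coordinates are from GENCODE M21, promoter sequences from RefSeq, and joins and plots used Python 3.11.15.

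All 32 members are reported. Values in every library are given for Unc119, Ctbp2, Cabp4, members whose genotypes did not overlap or whose unadjusted p was under 0.05, and the most abundant member of each role. Other members, and up to 4 genes with the smallest p from each of the 2 wider lists, are given by mean and SD. Members and lists were chosen with earlier results of these data known. No test of a list was run. The alternatives covered pseudocount, filter, scaling, variance prior, replicate block, lens and sex terms, and each library left out.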

Additional observations from a re-analysis of the deposited data

How the results depend on the processing

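No member was called under any of the 16 alternatives, and the median log2 change of the 32 members stayed below 0, from −0.08 to −0.04, with 19 to 28 members below 0 (a count chosen after seeing the data). The number of genes called over all genes was 33. It was 21 when scaled to the rod markers, 20 with no variance trend, 19 with the sex term and 7 with the lens term. With the replicate block it was 15, though the labels do not say whether the numbers pair libraries. Without knockout replicate 3 it was 27, and it was 12 to 21 with any 1 of the other libraries left out. The median of all genes tested was −0.0017. With other scaling, filter or pseudocount it ran from −0.018 (quantile normalization) to 0.0084 (scaled to the rod markers). The log2 changes of Rims2 and Cacnb2 ran from −0.27 to −0.18 and from −0.20 to −0.14, with adjusted p from 0.241 to 0.845 and 0.326 to 0.890. Of 511 member values 36 changed sign, in 14 members; the cause was not tested. With the lens term these were Erc2 (0.065), Cacna2d4 (0.029), Cplx3 (0.0061), Syn2 (−0.10), Stx3 (0.00038), Lrit1 (0.012), Dmd (0.12) and Dag1 (−0.044); with quantile normalization Syp (−0.054), Cplx4 (−0.0083) and Vamp2 (−0.058); when scaled to the rod markers Cplx3 (0.0065) and Dmd (0.0070); with the sex term Cplx3 (0.016) and Rab3a (0.0056). With 1 library left out, values ran from −0.13 to 0.045 for Rims1, −0.074 to 0.023 for Erc2, −0.062 to 0.016 for Cacna2d4, −0.033 to 0.060 for Syp, −0.029 to 0.015 for Cplx3, −0.019 to 0.075 for Cplx4, −0.055 to 0.15 for Syn2, −0.079 to 0.027 for Rab3a, −0.12 to 0.024 for Lrit1, −0.0084 to 0.067 for Lrit2 and −0.084 to 0.069 for Dmd. Erc1 had no value with the filter at a mean of 5 FPKM. Low genes such as Erc1 and Syn2 had the widest intervals.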
